A study of Mus musculus with 8 samples.

Results

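The cyclic nucleotide phosphodiesterase genes described here were Pde10a, Pde4a, Pde4b, Pde4d, Pde1a, Pde1b, Pde1c, Pde2a, Pde7b and Pde8b, 10 of the 21631 protein-coding genes considered on chromosomes 1 to 19 and X. The data were H3K27ac peaks, stretches of chromatin enriched for acetylated lysine 27 of histone H3, a mark of active promoters and enhancers. For each gene, every peak that overlapped its annotated span in mouse build mm10 or the 20 kb to each side was taken, which gave 995 of the 378623 peaks in the 8 lists. The set was chosen with earlier results of these libraries in view, in which Pde4d and Pde10a were among the genes with most bins called with KCl and not without. It counts as selected on that contrast, so comparisons of KCl with no stimulation are descriptions and carry no test. The study set depolarised neuronal cultures against silenced ones in 2 kinds of culture, with 4 groups of 2 libraries: MGE KCl, MGE unstimulated, CTX KCl and CTX unstimulated. The labels do not spell out the abbreviations, which usually stand for medial ganglionic eminence, an embryonic source of cortical interneurons, and for cortex. All cultures came from C57/BL6 embryos. On day 6 in vitro every group, the unstimulated ones included, was kept overnight in 1 µM TTX, which blocks sodium channels, plus 100 µM D-AP5, which blocks NMDA receptors. On day 7 the KCl groups received 55 mM KCl for 2 h and the unstimulated groups received nothing. The labels conflict on age and cell type: CTX titles say embryonic day 14 and the source field of all libraries says embryonic day 16, and the cell type field names cortical neurons for MGE libraries as well. Replicates are called biological, with no statement of what was kept separate, so the spread between them may be partly technical.

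Phosphodiesterases end the signal of the second messengers cAMP and cGMP by hydrolysing them, and the families differ in which of these they degrade and in what regulates them. In neurons, calcium entry on depolarisation acts on cAMP synthesis and, through calmodulin, on the phosphodiesterases of the PDE1 family, and cAMP acts through protein kinase A on the transcription factor CREB. PDE4 enzymes are specific for cAMP and are the targets of rolipram, PDE10A degrades both messengers and is abundant in striatal projection neurons, PDE2A is stimulated by cGMP, and PDE7B and PDE8B prefer cAMP.

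Each list had between 36035 and 66827 peaks, which together spanned between 21.1 and 44.7 Mb. CTX KCl 2 and CTX unstimulated 2 called most, so values are given both as called kb and as called bp per Mb called in the same list, which is here the scaled called length. The stimulation showed at the immediate early genes Fos and Npas4. The called length at Fos was 4.05 and 5.85 kb in MGE KCl, 1.68 and 1.63 kb in MGE unstimulated, 5.41 and 6.69 kb in CTX KCl, and 1.71 and 3.29 kb in CTX unstimulated libraries. At Npas4 all 4 KCl libraries, with 3.43 to 4.34 kb, likewise lay above all 4 unstimulated ones, with 1.71 to 2.35 kb. The cultures also differed by markers: the summed scaled length at 12 MGE and GABAergic genes was 1760 to 2334 bp per Mb in MGE and 938 to 1060 in CTX libraries, with Nkx2-1 at 0 in every CTX library. At 9 cortical glutamatergic genes it was 351 to 517 bp per Mb in MGE and 633 to 1016 in CTX libraries, with Neurod6 and Emx1 at 0 in every MGE library. The 10 LGE and striatal genes, markers of the tissue where Pde10a is known to be abundant, gave 341 to 445 bp per Mb in MGE and 400 to 480 in CTX libraries, ranges that overlap.

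The promoter windows of the 10 genes differed widely in whether a peak touched them. RefSeq (GRCm38.p6, the assembly behind mm10) listed 31 gene starts for them, and a window of 250 bp before to 50 bp after each start was searched for peaks. Of these windows, 3 were touched by a peak in all 8 lists, 10 in 4 to 7 lists, 6 in 1 to 3 lists and 12 in none. The list of starts is incomplete. At Pde10a, Pde4b, Pde1a, Pde1c and Pde7b no listed start lies at the 5′ end of the annotated span. The counts therefore cover listed starts alone. A window without a peak can have one close by. A Pde1c start and a Pde2a start whose windows were touched in none had a peak within 1 kb in 7 lists. The outermost Pde4a start went from 1 list to 6 in this way, whereas the only listed Pde4d start had no peak within 1 kb in any list. Over the 32619 promoters of all genes, 17.5% were touched in all 8 lists and 57.8% in none. The sequences below are the 250 bases before a start, on the gene's strand, of 5 promoters touched in 5 to 8 lists. Windows touched in few or no lists are not printed. The first listed Pde10a start, with chr17:8801495-8801744 on the plus strand, was touched in all 8 lists. The outermost listed Pde1a start, with chr2:80129413-80129662 on the minus strand, lay wholly inside a peak in every list, the same peak that held the next Pde1a start. The 2 Pde4b starts shown, both on the plus strand, had chr4:102421305-102421554, which was touched in 1 of 4 MGE libraries and all 4 CTX libraries, and chr4:102589593-102589842, which was touched in 7 lists and missed in CTX unstimulated 1. The Pde2a start, with chr7:101451002-101451251 on the plus strand, was touched in 7 lists and holds a match to the EGR letters. Capitals mark matches to the motifs named after the sequences.
Pde10a: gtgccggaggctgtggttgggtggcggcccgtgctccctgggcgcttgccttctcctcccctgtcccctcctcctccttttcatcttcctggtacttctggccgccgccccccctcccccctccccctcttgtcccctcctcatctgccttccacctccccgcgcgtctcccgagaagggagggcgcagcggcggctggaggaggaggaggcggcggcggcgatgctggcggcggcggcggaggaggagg
Pde1a: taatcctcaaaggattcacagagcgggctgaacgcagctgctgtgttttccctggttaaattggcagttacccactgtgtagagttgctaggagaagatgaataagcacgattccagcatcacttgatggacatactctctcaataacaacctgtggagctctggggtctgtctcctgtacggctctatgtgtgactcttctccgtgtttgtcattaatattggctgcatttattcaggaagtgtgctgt
Pde4b upstream start: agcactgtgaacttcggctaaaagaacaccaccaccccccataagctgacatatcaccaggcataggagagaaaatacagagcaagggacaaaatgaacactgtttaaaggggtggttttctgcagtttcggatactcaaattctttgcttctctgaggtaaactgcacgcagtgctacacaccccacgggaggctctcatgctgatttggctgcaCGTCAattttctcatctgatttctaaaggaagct
Pde4b downstream start: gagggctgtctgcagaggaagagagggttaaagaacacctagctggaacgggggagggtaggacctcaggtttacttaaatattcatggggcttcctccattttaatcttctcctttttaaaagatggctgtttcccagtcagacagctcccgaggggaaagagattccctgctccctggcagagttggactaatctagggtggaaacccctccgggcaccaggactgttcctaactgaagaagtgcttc
Pde2a: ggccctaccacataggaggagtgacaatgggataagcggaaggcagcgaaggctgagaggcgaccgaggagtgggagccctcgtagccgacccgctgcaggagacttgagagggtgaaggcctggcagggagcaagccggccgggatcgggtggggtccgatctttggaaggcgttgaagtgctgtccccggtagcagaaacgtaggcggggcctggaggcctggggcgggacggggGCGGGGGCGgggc

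On both strands, the full cAMP response element TGACGTCA, the binding sequence of CREB, was in none of the 31 promoter windows, against 1.80% of all promoters. Its first 5 letters, TGACG, which every full element also contains, were in 5 windows, or 16.1%, against 20.9% of all. The AP-1 letters TGANTCA, bound by Fos and Jun proteins, were in 1 window, at a Pde1c start, or 3.23% against 7.85%. The EGR letters GCGNGGGCG were in 4 windows, at starts of Pde1b, Pde2a and Pde8b, or 12.9% against 5.59%. At Pde8b 2 of these 4 windows overlap each other. These shares describe letters in a fixed window and say nothing of binding.

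In both cultures the phosphodiesterase windows together, Pde4d and Pde10a included, took a larger share of a list's peaks with KCl than without. In MGE the KCl lists had shares of 0.289% and 0.300%, against 0.232% and 0.237% for the unstimulated lists. In CTX the KCl lists had 0.286% and 0.293%, against 0.226% and 0.228% for the unstimulated lists. All 4 KCl lists lay above all 4 unstimulated lists. These shares include Pde4d and Pde10a, whose gain was known when the set was chosen, and do not describe the other members. Pde10a held 9 and 17 peaks in MGE KCl lists and 9 and 9 in MGE unstimulated ones. In CTX it held 17 and 23 with KCl, and 8 and 18 without. Pde4d alone held 52 and 65 of the 104 and 149 peaks in MGE KCl lists. In MGE unstimulated lists it held 34 and 32 of 89 and 86. In CTX it held 38 and 62 of 129 and 196 with KCl, and 25 and 36 of 94 and 148 without. To locate the difference, bins of 500 bp were used, each called where peaks filled 50% of it or more. Bins that both KCl libraries and neither unstimulated library of a culture called were gained, those with the reverse pattern lost, and 2 or more such bins in a row made a gained or lost region. In MGE, 28 of the members' 239 bins called in any library were gained, or 11.7%, against 8.4% over the genome, and in CTX 37 of 329, or 11.2%, against 6.32%. Pde4d and Pde10a held most of the MGE count. Without these 2 genes the share of gained bins was 4 of 103, or 3.88%, in MGE and 18 of 187, or 9.63%, in CTX. Lost bins numbered 9 in MGE, or 3.77% against 3.88%, and 7 in CTX, or 2.13% against 3.78%.

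A gained region was present at 2 of the 10 genes in MGE, Pde10a and Pde4d, where 4.86% of all genes tested had one, and at 3 in CTX, Pde10a, Pde4a and Pde4d, where 3.31% had one. Both percentages depend on gene length, and among spans of at least 100 kb they were 8.64% in MGE and 5.35% in CTX. Of the 7 members with such spans, 2 had a gained region in each culture, Pde10a and Pde4d. Pde4a is shorter. No member had a lost region in MGE, against 1.17% of genes, and Pde1a had one in CTX, against 1.29%. Overlapping peaks of the 8 lists were also merged into elements, of which 321 lay at the members. Peaks of both KCl lists and neither unstimulated list made up 24 of them in MGE, or 7.48% against 4.38% of the genome's 113604 elements, and 27 in CTX, or 8.41% against 4.67%. Pde4d, with 116 of the 321 elements, held 14 of the 24 and 10 of the 27, and Pde10a, with 37, held 3 of each. A further count combined the cultures: 7 elements had a peak in every KCl list but in no unstimulated one, 2 each at Pde10a and Pde4d and 1 each at Pde4a, Pde4b and Pde1c, where 0.562% of the genome's did. The reverse pattern was found at 0 of the 321 elements, against 0.117% of the genome's.

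**Figure D1:**
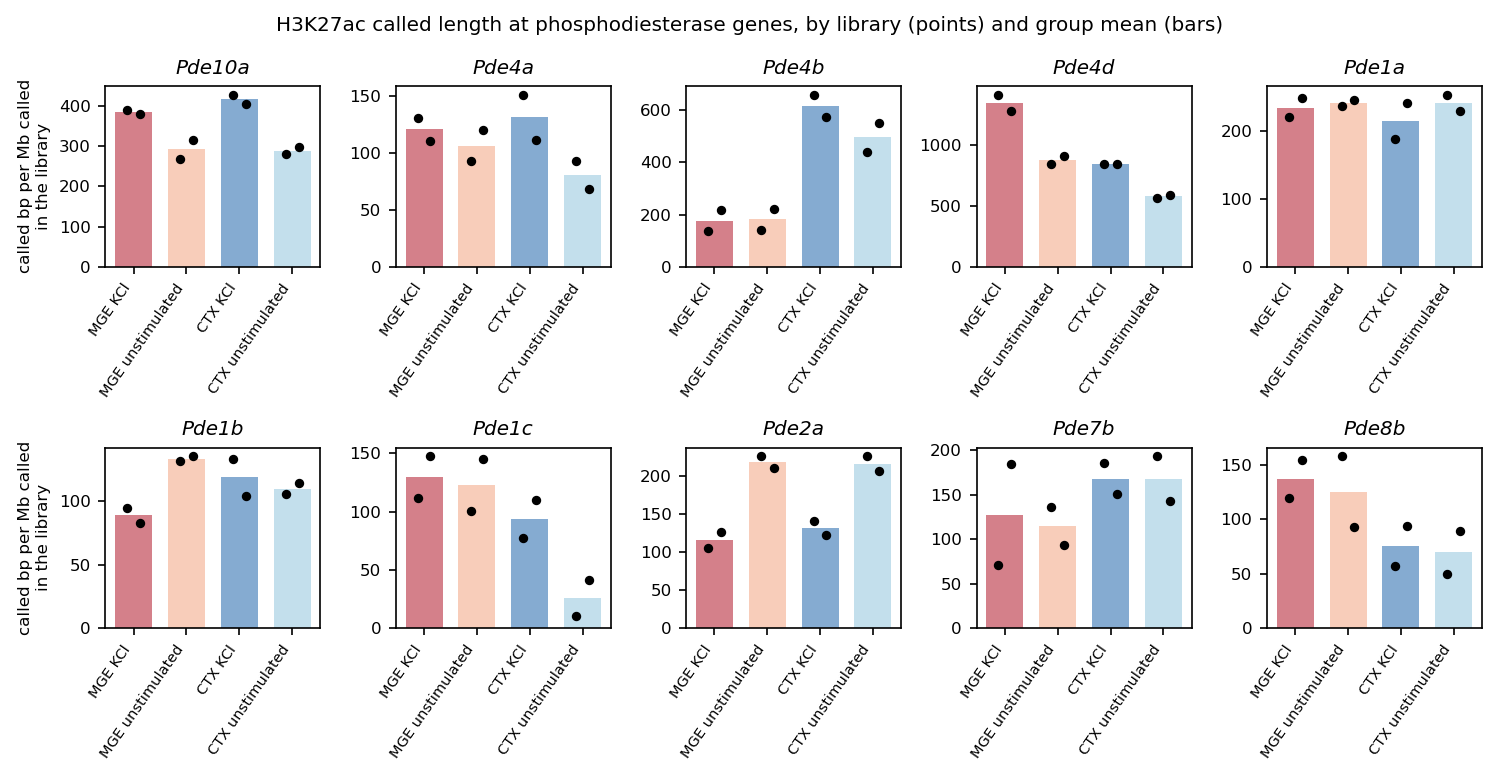
Scaled called length (called bp in the gene's window per Mb called in the library, linear axis) at each of the 10 genes. Points are the 2 libraries of a group and bars their mean; both KCl libraries of each culture lie above both unstimulated ones at Pde10a and Pde4d and below them at Pde2a.

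Pde10a, the dual-specificity enzyme of striatal projection neurons, lies at chr17:8525187-8986648 on the plus strand. Its called length was 8.41 and 12.2 kb in MGE KCl, 6.20 and 6.62 kb in MGE unstimulated, 12.2 and 18.1 kb in CTX KCl, and 6.59 and 12.8 kb in CTX unstimulated libraries. On the unscaled measure the groups overlap in CTX, where both libraries numbered 2 called far more overall. Scaled, the 4 KCl libraries had 379 to 429 bp per Mb and the 4 unstimulated ones 269 to 315, so the treatments did not overlap in either culture. The ratio of the means was 1.32 in MGE and 1.44 in CTX, above that of 79.8% and 86.5% of the 12450 genes with at least 1 kb called on average.

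The gained regions at Pde10a lay just inside the 5′ end of the annotated span and upstream of it. A gained region at chr17:8507001-8508000, 17.2 kb upstream of the span, was covered by peaks over all 1000 of its bases in each of the 4 KCl libraries and over 0 bases in each of the 4 unstimulated ones. The authors' fold enrichment of those peaks was 2.20 and 2.24 in the MGE KCl lists and 1.95 and 2.16 in the CTX KCl lists. A further gained region in MGE, chr17:8508501-8509500, had 705 and 748 bp in peaks in MGE KCl, 0 in both MGE unstimulated, 690 and 910 bp in CTX KCl, and 0 and 317 bp in CTX unstimulated libraries. The peak in CTX unstimulated 2 is what kept it from counting as gained in CTX. Just inside the span, chr17:8525501-8526500 was gained in CTX, with 1000 and 659 bp in peaks in MGE KCl, 976 and 1000 bp in CTX KCl and 0 bp in all 4 unstimulated libraries. In MGE it missed the definition because the peak of MGE KCl 2 there is in 2 parts. Far inside the span, the shorter element at chr17:8773070-8773466, of 0.397 kb, had 0.246 and 0.309 kb in CTX KCl libraries and 0 in the CTX unstimulated and all MGE libraries.

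Between these, the element at chr17:8523147-8525108, which ends within 0.1 kb of the span's 5′ end, had a peak in all 8 lists. Its called length was 1.16 and 1.84 kb in MGE KCl, 1.04 and 0.855 kb in MGE unstimulated, 0.929 and 1.36 kb in CTX KCl, and 0.974 and 0.969 kb in CTX unstimulated libraries. The MGE groups do not overlap there and the CTX groups do. The nearest start in the RefSeq table, whose sequence is printed above, lies 276 kb downstream of the gained region inside the span. It was touched in every list, though over 68 and 25 of 300 bp in the MGE unstimulated libraries and over all 300 bp in the other 6. Within the span alone, the scaled KCl ratio was 0.997 in MGE and 1.31 in CTX, so in MGE the higher value of the whole window came from the flanks. They held 3.02 and 4.86 kb in MGE KCl and 1.04 and 1.24 kb in MGE unstimulated libraries.

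**Figure D2:**
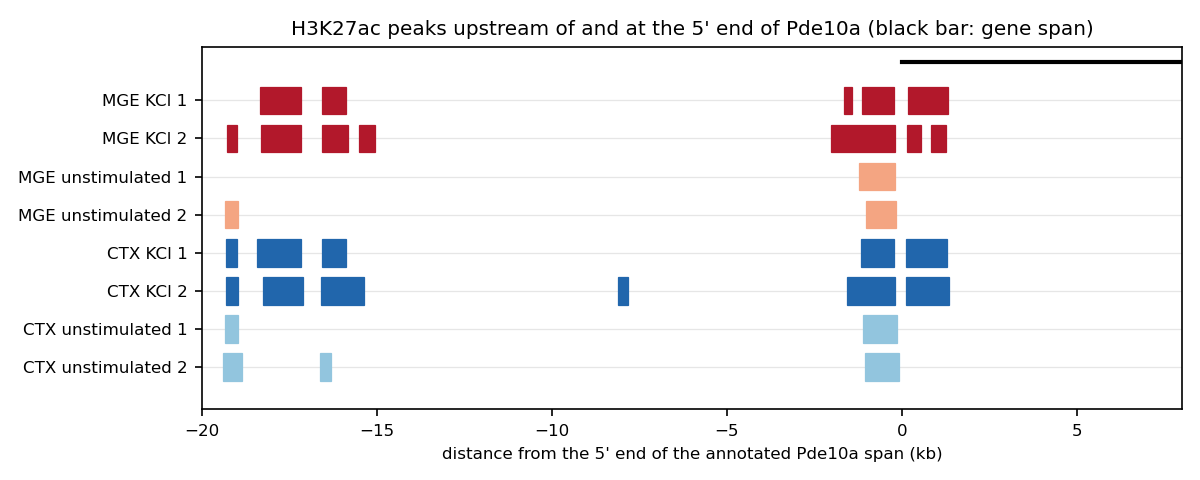
Peaks of the 8 libraries (rows) from 20 kb upstream to 8 kb downstream of the 5′ end of the annotated Pde10a span, in kb. Peaks near -17.8 kb and at 0.72 kb are found in each KCl library and missing from each unstimulated one, and the peak just upstream of 0 is present in all 8.

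Pde4d encodes a cAMP-specific enzyme and is the longest of the 10 genes, with a span of 1302 kb at chr13:108654177-109955969 on the plus strand and 116 of the 321 elements. Its called length was 30.4 and 41.2 kb in MGE KCl, 19.6 and 19.2 kb in MGE unstimulated, 23.9 and 38.0 kb in CTX KCl, and 13.3 and 25.5 kb in CTX unstimulated libraries. The MGE groups are apart and the CTX groups overlap. Scaled, it was 1417 and 1286 bp per Mb in MGE KCl, 849 and 912 in MGE unstimulated, 842 and 849 in CTX KCl, and 563 and 593 in CTX unstimulated libraries, with ratios of 1.53 in MGE and 1.46 in CTX. Its strongest peak by the authors' −log10 q ranked above 89.0% to 98.2% of the peaks of its list. KCl libraries of CTX stood at about the level of unstimulated libraries of MGE.

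No gained region at Pde4d met the definition in both cultures. In MGE there were 4, all inside the span, at chr13:109488001-109489000, chr13:109693001-109694000, chr13:109694501-109695500 and chr13:109927001-109928500. The first had 912 and 796 bp in peaks in MGE KCl libraries and 0 bp in the other 6, CTX KCl included. The next 2 had 387 to 712 bp in peaks in CTX KCl libraries and 0 in CTX unstimulated ones, so CTX showed the same order there without 2 adjacent bins called in both KCl libraries. In CTX there were 2 gained regions, 6.03 and 7.53 kb past the 3′ end of the span at chr13:109962001-109963000 and chr13:109963501-109964500. Both of these were also covered in all 4 MGE libraries, by 748 to 918 bp in MGE KCl and by 253 to 682 bp in MGE unstimulated libraries, whereas CTX unstimulated libraries had 0. Of the gained bins, 17 in MGE and 14 in CTX, 2 were the same bin, or 11.8% of the MGE and 14.3% of the CTX ones. Over the genome 986 gained bins were shared, or 13.5% of 7283 in MGE and 12.6% of 7819 in CTX. The single Pde4d start in the RefSeq table, at the 5′ end of the span, was touched by a peak in no list. Starts that this table does not list were not searched.

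Pde4a and Pde4b, like Pde4d, encode cAMP-specific PDE4 enzymes. At Pde4a, at chr9:21165700-21213248, the scaled called length was 131 and 110 bp per Mb in MGE KCl, 92.8 and 120 in MGE unstimulated, 151 and 111 in CTX KCl, and 92.8 and 68.6 in CTX unstimulated libraries. The treatments overlap in MGE and not in CTX. The CTX-gained region at chr9:21162001-21163000, 2.70 kb upstream of the span, had 152 and 812 bp in peaks in MGE KCl, 756 and 807 bp in CTX KCl and 0 bp in all unstimulated libraries. The Pde4a window also holds parts of Cdc37, a kinase co-chaperone gene, and Keap1, the gene of an adaptor for NRF2 degradation. With those genes and 2 kb around them left out, the ratio was 1.30 in MGE and 1.69 in CTX, against 1.13 and 1.62 with them.

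At Pde4b, at chr4:102087332-102607275, MGE KCl libraries had 136 and 216 bp per Mb against 142 and 219 in MGE unstimulated ones, a ratio of 0.971 with overlap. CTX KCl libraries had 659 and 572 bp per Mb against 441 and 549 in CTX unstimulated ones, a ratio of 1.24 without overlap. No region was gained in either culture. One element inside the span, chr4:102509907-102510773, followed KCl in all libraries, with 0.348 and 0.355 kb in MGE KCl, 0.774 and 0.336 kb in CTX KCl and 0 in the 4 unstimulated libraries. Its neighbour at chr4:102511190-102512282 was called in 7 lists and missing in CTX unstimulated 1.

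**Figure D3:**
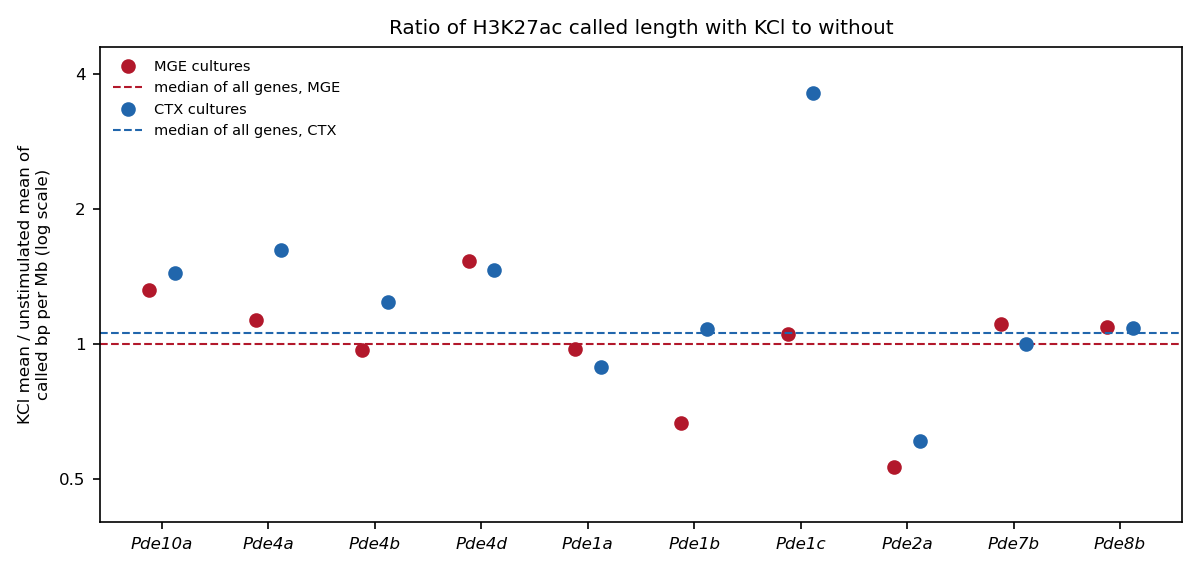
Ratio of the KCl mean to the unstimulated mean of scaled called length (log axis) for each gene in MGE and CTX cultures, 2 libraries a group; dashed lines are the medians of all 12450 genes, 1.00 in MGE and 1.06 in CTX. Pde10a and Pde4d lie above the lines and Pde2a below them in both cultures, and for the highest ratio, of Pde1c in CTX, 1 of the 2 unstimulated libraries held a single peak.

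Over the 10 genes the median scaled ratio was 1.07 in MGE and 1.16 in CTX, beside 1.00 and 1.06 over all genes, and the difference was not tested. Both KCl libraries were above both unstimulated ones at 2 members in MGE, where 22.7% of genes were, and at 5 in CTX, where 22.5% were. The reverse held for 2 members in MGE, Pde1b and Pde2a, against 21.2% of genes, and for 1 in CTX, Pde2a, against 12.4%.

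The 3 PDE1 genes, whose enzymes are stimulated by calcium and calmodulin, did not share a direction. Pde1a, at chr2:79834453-80196522 on the minus strand, had 221 and 249 bp per Mb in MGE KCl, 237 and 246 in MGE unstimulated, 188 and 242 in CTX KCl, and 254 and 229 in CTX unstimulated libraries, with overlap in both cultures. It carried the single lost region of the set, chr2:80104501-80105500, with 0 and 229 bp in peaks in CTX KCl libraries, against 788 and 995 bp in CTX unstimulated ones, and 0 in all MGE libraries. Pde1b, at chr15:103503034-103530056, had 95.1 and 82.7 bp per Mb in MGE KCl against 131 and 136 in MGE unstimulated libraries, and 134 and 104 in CTX KCl against 106 and 114 in CTX unstimulated ones. Much of that window's signal lies at Ppp1r1a, a protein phosphatase inhibitor gene with 1.15 to 1.43 kb in every library, and at Nckap1l, an actin regulator gene of blood cells. In the Pde1b span alone the MGE ratio was 0.815 instead of 0.666, and in the whole window with peaks of −log10 q of at least 5 it was 1.02.

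Pde1c, at chr6:56069798-56652510 on the minus strand, had 2.39 and 4.73 kb in MGE KCl, 2.31 and 3.06 kb in MGE unstimulated, 2.21 and 4.93 kb in CTX KCl, and 0.245 and 1.77 kb in CTX unstimulated libraries. The CTX ratio of scaled length, 3.64, was above that of 99.5% of genes, but CTX unstimulated 1 held a single peak there. Leaving out 1 library at a time moved it between 2.28 and 9.03. In MGE the ratio was 1.05. The element at chr6:56131007-56131596 had 0.352 and 0.248 kb in MGE KCl, 0.517 and 0.229 kb in CTX KCl and 0 in all unstimulated libraries.

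Pde2a, whose enzyme is stimulated by cGMP and thereby links both messengers, showed the opposite order to Pde10a in both cultures. Its window surrounds chr7:101421691-101512829 on the plus strand. The scaled called length was 106 and 126 bp per Mb in MGE KCl, 226 and 210 in MGE unstimulated, 141 and 123 in CTX KCl, and 227 and 206 in CTX unstimulated libraries. All 4 KCl libraries were below all 4 unstimulated ones, and the unstimulated levels of the 2 cultures overlap. The ratio was 0.532 in MGE and 0.609 in CTX, and 3.03% and 3.41% of genes had lower ones. Unscaled, it was 2.28 and 4.05 kb in MGE KCl against 5.21 and 4.43 kb in MGE unstimulated, and 4.0 and 5.50 kb in CTX KCl against 5.33 and 8.86 kb in CTX unstimulated libraries, so the CTX groups overlap on that scale. No region met the definition of lost. The element across the 5′ end of the span, chr7:101421076-101422296, had a peak in every list, of 0.325 and 1.07 kb in MGE KCl, 1.04 and 0.990 kb in MGE unstimulated, 0.933 and 1.14 kb in CTX KCl, and 0.756 and 1.20 kb in CTX unstimulated libraries, with overlap. The element centred 6.4 kb upstream, chr7:101414430-101416248, had 0.408 and 1.00 kb in MGE KCl, 1.08 and 1.5 kb in MGE unstimulated, 1.07 and 0.827 kb in CTX KCl, and 1.60 and 1.73 kb in CTX unstimulated libraries. There the treatments are apart in both cultures. Past the 3′ end of Pde2a, chr7:101521114-101522160 had 0 kb in both MGE KCl, 0.346 and 0.284 kb in MGE unstimulated, 0 and 0.643 kb in CTX KCl, and 0.576 and 1.02 kb in CTX unstimulated libraries. Markers of endothelial and mural cells and of microglia stood in the same order. The summed scaled length of the 5 endothelial and mural genes was 61.1 and 124 bp per Mb in MGE KCl against 157 and 133 in MGE unstimulated, and 117 and 119 in CTX KCl against 241 and 190 in CTX unstimulated libraries, ratios of 0.636 and 0.548, with Cldn5 and Kdr at 0 in every library. For the 5 microglia genes the ratios were 0.762 in MGE and 0.757 in CTX. For the 5 astrocyte genes they were 1.57 and 1.08, with overlap of the treatments in both cultures. There MGE KCl libraries had 112 and 272 bp per Mb against 127 and 119 in MGE unstimulated ones. CTX KCl libraries had 439 and 448 bp per Mb against 377 and 444 in CTX unstimulated ones. The part of these cell types in the values at Pde2a was not tested.

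Pde7b and Pde8b, genes of cAMP-selective enzymes, showed no KCl difference beyond their spread. Pde7b, at chr10:20397052-20725078, had 70.6 and 185 bp per Mb in MGE KCl, 136 and 93.6 in MGE unstimulated, 185 and 151 in CTX KCl, and 194 and 143 in CTX unstimulated libraries. Pde8b, at chr13:95024105-95250401, had 119 and 154 bp per Mb in MGE KCl, 158 and 92.8 in MGE unstimulated, 56.9 and 93.8 in CTX KCl, and 50.0 and 89.0 in CTX unstimulated libraries. The treatments overlap for both genes in both cultures. Neighbouring genes in the windows of other members, 1700010I14Rik at Pde10a, Ppp1r1c at Pde1a, Arap1 at Pde2a, and Wdr41 and Gm48350 at Pde8b, held at most 0.397 kb of called length in any library.

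Between the cultures, 4 of the 10 genes differed by the test below. The members and the test were chosen with earlier results of these libraries known. The p-values are therefore not those of a set fixed beforehand. The contrast was tested with limma on log2 of scaled called length plus 10 bp per Mb over 12450 genes with all 8 libraries, and p-values were adjusted over all of them by the Benjamini-Hochberg method. At an adjusted p under 0.05, 3 members were higher in MGE, where 12.5% of genes were, and 1 was lower, where 12.8% were. Unscaled, the call held for Pde4b alone (adjusted p = 0.016), where 11% of genes were lower and 1.39% higher, 12.4% in all against 25.3% when scaled, and the median gene moved to -0.28 on the log2 scale, against 0.14 when scaled. Of all calls, 49.5% were higher in MGE when scaled and 11.2% unscaled. Relative to those medians Pde4b was at -1.74 scaled and -1.78 unscaled, and Pde4d at 0.49 and 0.44. With peaks of −log10 q of at least 5 alone, Pde4b was the only one called of the 8 members tested, Pde1c and Pde8b not being among the 9222 genes that passed the filter. Few genes were called there, 0.911% lower and 1.73% in all.

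Pde4b was lower in MGE, with 136 to 219 bp per Mb against 441 to 659 in CTX libraries, a log2 difference of -1.60 ± 0.16 (SE) and an adjusted p of 1.5e-09 by limma. It was lower in every MGE library than in any CTX library, scaled or not. The gene's elements make this visible: 1 of its 52 had a peak in every MGE and no CTX list and 8 had the reverse, where 2.68% and 4.83% of the genome's elements did, and the bins of 2 regions, chr4:102414001-102415000 and chr4:102534001-102535000, were called in all CTX and no MGE libraries. CTX-only regions were present at 3 members, Pde4b, Pde4d and Pde7b, against 2.33% of genes of any length. Their spans are long, 520, 1302 and 328 kb, and a share among long spans is not given here. The ends of the gene did not share the pattern. The element at the 5′ end, chr4:102087387-102088858, and that around the downstream start, chr4:102588411-102590317, had a peak in all 8 lists. At the upstream start printed above, by contrast, peaks covered 0, 0, 0 and 217 of 300 bp in the 4 MGE libraries and 300, 300, 127 and 300 bp in the 4 CTX libraries.

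Pde4d was higher in MGE, with 849 to 1417 bp per Mb against 563 to 849 in CTX libraries. The log2 difference was 0.63 ± 0.09 with an adjusted p of 2.6e-06 by limma. Within each treatment the cultures are well apart, while MGE unstimulated and CTX KCl libraries stand side by side. Of its 116 elements, 9 had a peak in every MGE list and no CTX list and 3 the reverse, with the same backgrounds of 2.68% and 4.83%. The MGE-only region of the set, where 1.48% of genes of any length had one, was chr13:108866001-108867000, about 212 kb into the span. A CTX-only region lay past its other end at chr13:109971001-109972000.

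**Figure D4:**
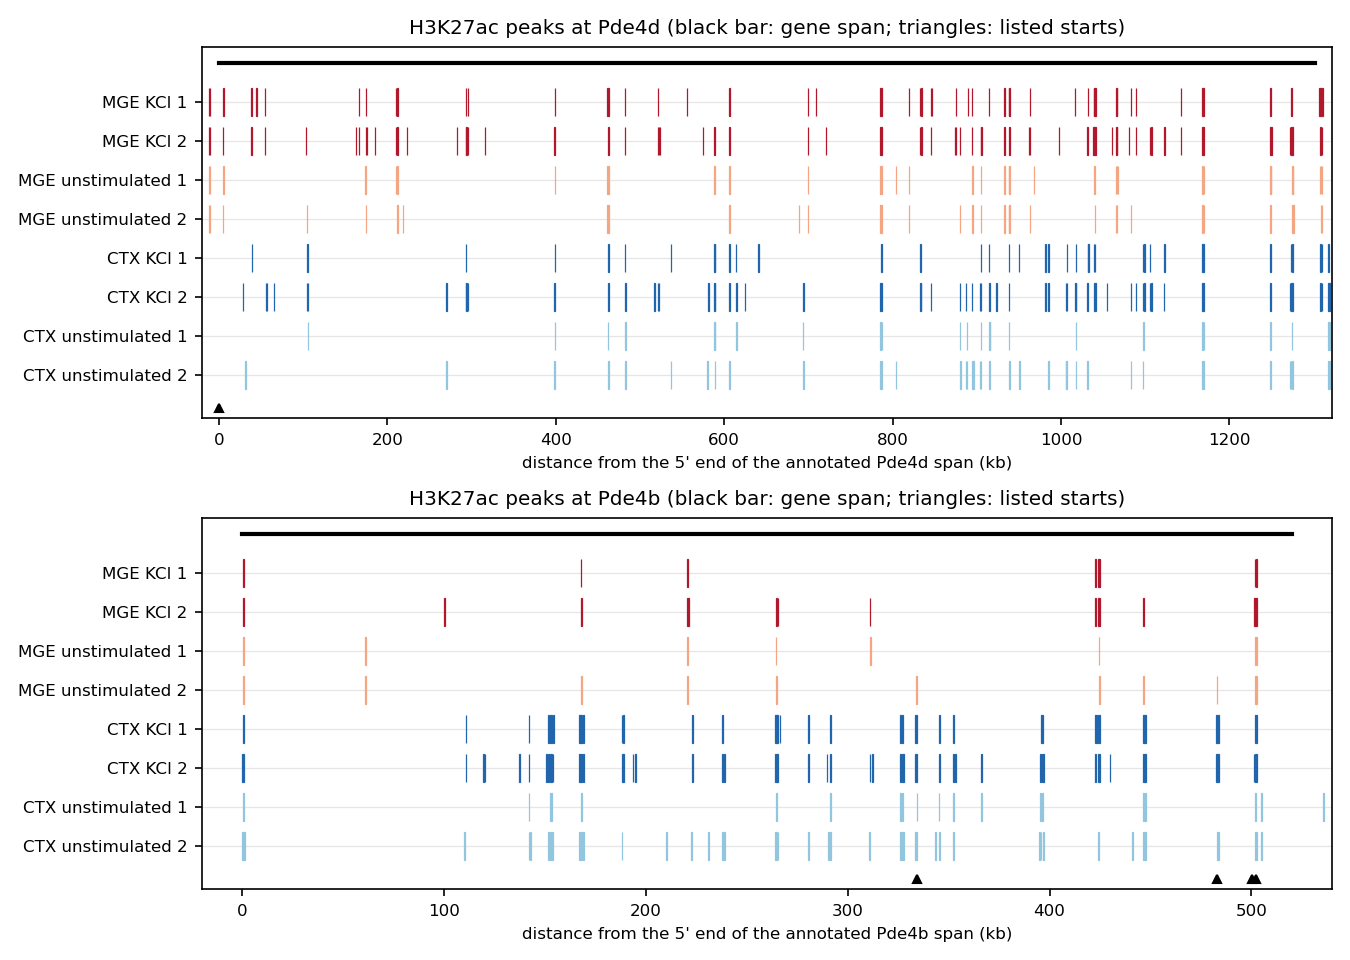
Peaks of the 8 libraries (rows) across Pde4d and Pde4b with 20 kb to each side, in kb from the 5′ end of the span. At Pde4b the MGE libraries hold 7 to 11 peaks and the CTX libraries 19 to 42, whereas at Pde4d both cultures are covered and MGE KCl libraries hold 52 and 65 peaks.

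Pde1c was also higher in MGE, by 1.22 ± 0.23 on the log2 scale (adjusted p = 9.5e-05, limma), with 100 to 148 bp per Mb against 10.4 to 110 in CTX libraries, ranges that overlap through CTX KCl 2. Pde8b was higher in MGE by 0.79 ± 0.21 (adjusted p = 0.0053, limma), with 92.8 to 158 against 50.0 to 93.8 bp per Mb, where the lowest MGE library lies just under the highest CTX library. Its call was lost without MGE unstimulated 1 (adjusted p = 0.052) and without CTX KCl 1 (adjusted p = 0.060). Pde7b had a log2 difference of -0.51 without passing the threshold (adjusted p = 0.080, limma). Leaving out 1 library at a time moved it between -0.83 and -0.19, and without MGE KCl 2, its highest MGE library, it was -0.83 with an adjusted p of 0.00097 by limma. In the span alone it was -1.08 (adjusted p = 0.0035, limma). It had a CTX-only region at chr10:20723001-20724000, 1.08 kb from the 5′ end of its span. For Pde10a, Pde4a, Pde1a, Pde1b and Pde2a the log2 difference lay between -0.08 and 0.13, with adjusted p-values from 0.65 to 0.84 by limma. Pde2a turned with the window: in its span alone it was higher in MGE by 0.74 (adjusted p = 0.016, limma). A difference that misses the threshold does not show that the cultures are alike.

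**Figure D5:**
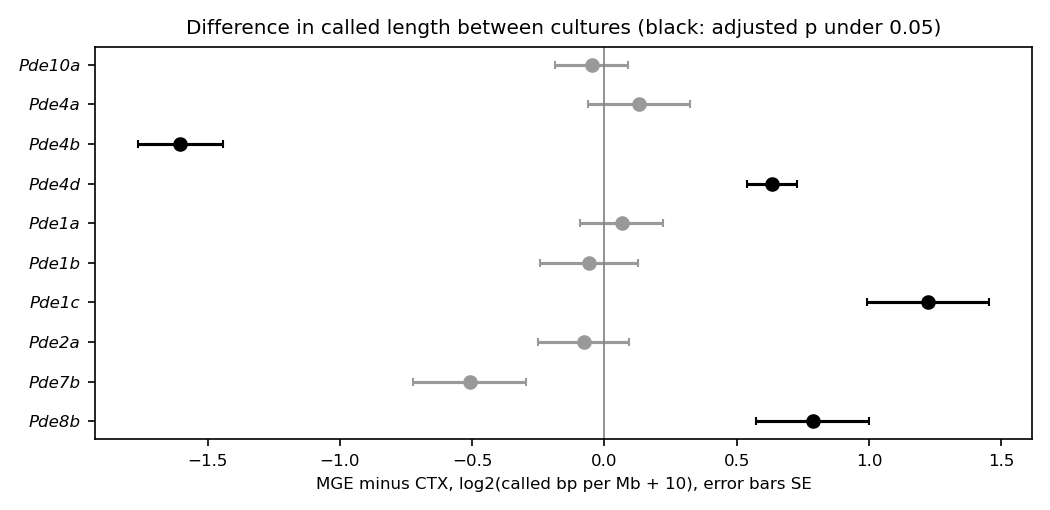
Difference MGE minus CTX of log2(called bp per Mb + 10) for each gene, with its standard error from limma over 8 libraries (4 against 4). Pde4b lies far below 0, Pde4d, Pde1c and Pde8b above it, and the other 6 near 0 or, for Pde7b, at -0.51 without passing the threshold.

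Markers of other cell types also differed between the cultures. The summed scaled length was lower in every MGE library than in any CTX library for the astrocyte list, with 112 to 272 against 377 to 448 bp per Mb, and for the oligodendrocyte lineage list, with 65.3 to 136 against 401 to 522. It was also lower for the progenitor list, with 213 to 365 against 399 to 522, and higher for the microglia list, with 129 to 186 against 68.4 to 104. No gene of the astrocyte, oligodendrocyte and progenitor lists, of 5 each, was higher in MGE on average, and Aqp4 and Cspg4 were at 0 in all MGE libraries. Of the microglia list 3 of 5 were higher in MGE, Cx3cr1 was at 0 in all libraries, and Csf1r and C1qa were at 0 in CTX. The part of these cells in the differences at Pde4b, Pde4d, Pde1c and Pde8b was not tested, and in bulk cultures fewer cells of a type cannot be told apart from less acetylation per cell.

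The rest of the cyclic nucleotide pathway was followed in a list of 59 genes. Among the 14 other phosphodiesterases, none of the 11 tested in MGE and none of the 14 tested in CTX had one. Over the whole list 0 of 43 genes tested had one in MGE and 3 of 52 in CTX, beside the 4.86% and 3.31% of all genes given above. These 3 were Gucy1a2, a subunit gene of the nitric oxide receptor that makes cGMP, Cnga4, a cyclic nucleotide-gated channel subunit gene, and Popdc2, the gene of a cAMP-binding membrane protein. Gucy1a2 had a called length of 3.41 ± 0.01 kb in CTX KCl and 1.86 ± 0.56 kb in CTX unstimulated libraries (SD, n = 2 each here and below). Cnga4 had 3.61 ± 0.60 kb in CTX KCl and 1.64 ± 1.07 kb in CTX unstimulated libraries. Popdc2 had less with KCl, 0.873 ± 0.393 kb in CTX KCl and 1.40 ± 0.21 kb in CTX unstimulated libraries, and its window holds 1 bin of the gained region and 1 lost bin. A lost region was found at Adcy2, an adenylyl cyclase gene, in MGE, and at Pkig, a protein kinase A inhibitor gene, in CTX. Between cultures, 8 of the 48 listed genes tested were higher in MGE and 7 lower by limma at an adjusted p under 0.05. Of all genes, 12.5% were higher and 12.8% lower. The median log2 difference of the list was 0.21, beside 0.14 over all genes. Of the adenylyl cyclase genes 1 was higher, Adcy9, and 2 were lower, Adcy1 and Adcy8, which encode calcium-stimulated enzymes. Of the effectors 4 were higher and 2 lower, Prkar1b and Prkar2b, which encode regulatory subunits of protein kinase A, being among the higher. The other phosphodiesterases had 2 higher and 1 lower, the guanylyl cyclases 0 and 1, and the anchors and inhibitors 1 and 1.

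The genes whose scaled called length followed Pde4d most closely over the 8 libraries were Hsd17b12, Mmgt2 and Sertm1, with Pearson r of 0.987, 0.981 and 0.977, and 188 of 12449 genes had an r above 0.9. For Pde10a they were Atp1a4, Grasp and Spidr, with r of 0.986, 0.974 and 0.968, and 74 of 12448 genes were above 0.9. The r of Pde10a with Pde2a was -0.93 and with Pde4d 0.53. These values share their libraries and their 4 groups, and are given as a description of likeness alone.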

How the data were processed

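H3K27ac ChIP-seq peaks of 8 libraries were used, 4 groups of 2, with groups taken from the titles. The submitters' processing notes name mm10, MACS3 3.0.0a7, Bowtie2 2.3.3, deepTools 3.4.3 and cutadapt 1.18. Settings, input control and duplicate handling are not stated there. Each library has its own list of broad peaks, whose names include "unfiltered". The authors deposited for each peak a fold enrichment (a ratio) and a −log10 q value, used here to describe or filter peaks within a list. Deposited −log10 p values and scores were not used. Read depth is unknown, and a region missing from a list may lie just under the caller's threshold.

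Bases in peaks were summed over each gene span with 20 kb to each side, and divided by the Mb called in the list. Bins of 500 bp were called at 50% cover, and genes needed 4 callable bins for region counts. KCl effects have no test: with 2 against 2 libraries the smallest two-sided exact p is 0.33. The culture contrast was fitted with limma 3.58.1 (R 4.3.3, trended variance, threshold 0.05, genes with at least 1 kb called on average) and tested on simulated data. Its p-values borrow the spread of all genes. Members, gene lists and tests were chosen with earlier results of these data known. The text names all members, every protein-coding gene in their windows that bears on a value, pathway genes with a gained or lost region, some called between cultures as examples chosen after their values were seen, the 3 genes most like each of the 2 members with most gained bins, and Fos and Npas4. Same-numbered libraries were not treated as pairs, since the correlation of their deviations ranged from -0.11 to 0.36 over the pairs of groups. Between the 2 treatments of a culture it was 0.06 in MGE and 0.36, the highest, in CTX. Alternatives changed the bin cover, q threshold, window, scaling, pseudocount and filter, equalised called bases, and left out each library.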

Additional observations from a re-analysis of the deposited data

How the results depend on the processing

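The gained regions depended on how bins and windows were defined. Members with one numbered 2 in MGE and 3 in CTX, and 6 and 8 with any overlap counting as called, 5 and 9 with single bins counted, and 1 and 1 in the gene span alone; in CTX it was 1 with peaks of −log10 q of at least 5. Leaving out 1 library gave 2 to 6 in MGE, the 6 without MGE KCl 1, and 3 to 8 in CTX, the 8 without CTX KCl 1 and 5 without CTX unstimulated 2. Gained bins, 28 in MGE and 37 in CTX, were 60 in MGE with any overlap, 13 and 17 with the stricter q, 36 to 92 in MGE (92 without MGE KCl 1, 44 without MGE KCl 2) and 40 to 109 in CTX (109 without CTX KCl 1, 77 without CTX unstimulated 2). Fewer libraries make the definition easier to meet. The members' median KCl ratio of 1.07 in MGE was 1.39 with the stricter q and 1.33 unscaled (0.912 to 1.20 without 1 library), and that of 1.16 in CTX was 1.31 with the stricter q and 1.35 with equal called bases (1.15 to 1.40 without 1 library). The 4 members called between cultures became 1 unscaled and 1 of the 8 tested with the stricter q, where 160 of 9222 genes were called, and 3 to 5 without 1 library. With a replicate block, 4 members and 1897 higher and 1709 lower genes were called, against 1561 and 1594 without it.

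The direction reversed for 3 values that were called in either setting or whose treatments did not overlap: the MGE ratio of Pde10a in its span alone (0.997), that of Pde1b with the stricter q (1.02), and the culture difference of Pde2a in its span alone (0.74, adjusted p = 0.016 by limma). The cause was not tested. A further 25 KCl ratios crossed 1 and 11 culture differences crossed 0 at genes with overlap or no call, among them the MGE ratio of Pde4b, 0.971, which was 1.37 with equal called bases, and that of Pde7b, 1.11, which was 0.615 without MGE KCl 2. Pde4b kept its culture call in 16 of 16 alternatives, with log2 differences of -4.98 to -1.45, Pde4d in 14 of 16, Pde1c in 14 of 15, Pde8b in 11 of 15, and Pde7b gained one in 5 of 16. Of 177 alternative KCl ratios of single genes 146 moved by less than 1 SD, and of 158 culture values 145 stayed on the same side of the threshold, 11 of them with the other sign. Without the neighbouring genes, chosen after seeing the data, 2 and 3 members kept a gained region, and without both CTX libraries numbered 2, likewise chosen, 4 members were called. Unknown depth limits every absence: a peak missing from a shorter list may be an undetected one.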
